A study of Mus musculus with 4 samples.

Results

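*Sln*-rich cardiomyocytes are the non-cycling heart muscle cells of E14.5 mouse ventricles in which transcripts of *Sln*, the gene of sarcolipin, made up at least 0.1% of all unique molecular identifiers (UMIs, each a counted RNA molecule). Cells were first kept with 1000 to 7000 detected genes and at most 15% mitochondrial UMIs. Cardiomyocytes were those in which *Tnnt2*, *Actc1*, *Tnnc1* and *Ttn* together held at least 1% of UMIs, with at most 1 UMI of the endothelial genes *Pecam1*, *Cdh5*, *Emcn* and *Egfl7*. Non-cycling cells held at most 3 UMIs of *Rrm2*, *Esco2*, *Pclaf*, *Hist1h1b*, *Ube2c*, *Ccnb1*, *Cenpf* and *Hmmr* together, and cells with any UMI of *Tbx3* were left out. This gave 95 cells of 45551 barcodes (0.209%), or 1.02% of the 9331 non-cycling cardiomyocytes. They came as 16 and 12 cells from control replicates 1 and 2, and 30 and 37 cells from *Ets1* eKO replicates 1 and 2. The other cardiomyocytes, 9187 cells, met the same limits with *Sln* under 0.1% of UMIs, whatever their *Tbx3* count, and the 49 cells with enough *Sln* and a UMI of *Tbx3* belong to neither class.

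Sarcolipin is a small membrane protein of the sarcoplasmic reticulum that slows the calcium pump, as its relative phospholamban (*Pln*) does. In the mouse heart *Sln* is known as a gene of atrial muscle, whereas *Pln* is found mainly in ventricular muscle. Atrial and ventricular cardiomyocytes also use different myosin light and heavy chains, and the nuclear receptors *Nr2f1* and *Nr2f2* are known to favour the atrial program, while *Hey2* and *Irx4* mark ventricular muscle.

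The study compared ventricles that lack *Ets1*, an ETS family transcription factor, in the endothelium with those of controls, to ask how the endothelium acts on the growth of heart muscle. The *Ets1* eKO embryos were Tie2Cre;*Ets1* fl/fl and the controls Tie2Cre;*Ets1* fl/+, so that the controls also carried Cre and were heterozygous for the floxed allele. Tie2Cre acts in endothelial cells and much of the blood lineage and not in cardiomyocytes, whose own *Ets1* is therefore not the target. Each of the 2 libraries per group pooled the ventricles of 3 untreated embryos on a C57BL/6 background, of both sexes and not genotyped for sex, counted with the 10x Genomics 3' v3.1 chemistry. The sources used here do not say whether the libraries were made in the same batch, and the methods of the study name Harmony for batch correction.

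In all that follows, values of the 4 libraries stand in the order control replicate 1, control replicate 2, *Ets1* eKO replicate 1, *Ets1* eKO replicate 2. The deposited matrices held 12641, 7949, 10010 and 14951 barcodes with totals of 124140739, 76931208, 95131419 and 102872196 UMIs. Median UMIs per barcode were 8630, 8369, 8222 and 5632, which makes *Ets1* eKO replicate 2 the shallowest library. *Sln*-rich cells had medians of 9204, 11599, 9656 and 5643 UMIs and the other cardiomyocytes 11351, 12051, 11488 and 7058. Levels are given as CPM, the usual counts scaled by the total UMIs of the summed cells of a class in a library, and the *Sln*-rich sums held 149655, 138455, 288257 and 215335 UMIs. A total of 191 barcode sequences occurred in at least 2 libraries, and 1 *Sln*-rich cell carried such a barcode.

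The libraries stood apart in the sex of their cells. *Xist*, the RNA of the inactive X chromosome, was at 0, 397, 250 and 515 CPM in *Sln*-rich cells and at 0.127, 195, 203 and 351 CPM in the other cardiomyocytes. The Y-linked gene *Ddx3y* stood at 43.5, 22.1, 16.7 and 1.15 CPM in the other cardiomyocytes. Control replicate 1 thus held male cells, *Ets1* eKO replicate 2 nearly all female cells, and the remaining libraries a mixture. Sex and genotype therefore differ together in part between the groups, and the part of sex in the differences between groups was not tested. Leaving out each library in turn does not separate sex from genotype, since without control replicate 2 only male cells remain as control.

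*Ets1* (chromosome 9, 32636221 to 32757820 on the plus strand of GRCm38, ENSMUSG00000032035) was low in the *Sln*-rich cells. It gave 0, 0, 1 and 1 UMIs, in 2 of 95 cells (2.11%), beside 6.82% of the other cardiomyocytes and 60.7% of endothelial cells with a UMI. In the other cardiomyocytes it stood at 6.14, 6.16, 8.53 and 8.86 CPM. Endothelial cells of the same libraries, where Cre acts, held 299.8, 273, 136 and 100.1 CPM, so that both *Ets1* eKO libraries lay below both controls. Where the counted 3' tags lie relative to the deleted part of the gene is not given in the sources used here.

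*Sln* (chromosome 9, 53850164 to 53854560, plus strand, ENSMUSG00000042045) reached 1878, 2029.5, 1800.5 and 1918 CPM in the cells chosen by it, with a mean of 1906 ± 95.5 CPM (SD, n = 4 libraries). The other cardiomyocytes held 10.2, 16.8, 17.7 and 9.78 CPM. A *Sln*-rich cell carried between 4 and 55 UMIs of *Sln*, with a median of 14, and its share of all UMIs had a median of 0.165% and reached 0.427%. Immune cells, which should lack the gene and show what free RNA gives, held at most 0.8 CPM in a library, and 2 of 773 of them (0.259%) had a UMI of *Sln*.

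The other given markers were not used to choose the cells. *Cacna2d2* (chromosome 9, 107399612 to 107529343, plus strand), which encodes an auxiliary subunit of voltage-gated calcium channels, stood at 241, 188, 434 and 399 CPM in *Sln*-rich cells and at 29.7, 49.4, 45.2 and 33.5 CPM in the other cardiomyocytes. Its level was thus higher in *Sln*-rich cells in each library, by a mean log2 ratio of 2.79 ± 0.69 (SD, n = 4 libraries). *Cpne5* (chromosome 17, 29155556 to 29238167, minus strand), which encodes a calcium-dependent membrane-binding protein of the copine family, stood at 220.5, 137, 253 and 279 CPM against 26.3, 39.4, 29.1 and 25.5 CPM, a log2 ratio of 2.67 ± 0.68. A UMI of *Cacna2d2* was present in 71 of 95 *Sln*-rich cells (74.7%) and one of *Cpne5* in 68 (71.6%), against 11.1% and 13.7% of the other cardiomyocytes. Immune cells, which should lack both, held them in 0.647% and 0.776% of cells, and with every cell thinned to 2000 UMIs the shares were 45.3% and 35.8% in *Sln*-rich cells against 5.50% and 5.07%. Of the 8 cardiomyocyte markers, the 4 not used to choose cells had a median log2 ratio of -0.00 and none differed by 2-fold in each library, so the cells bear the name *Sln*-rich cardiomyocytes in the data.

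Cells on both sides of the *Sln* limit were compared. Cells just outside it, with 0.05% to 0.1% of UMIs from *Sln*, numbered 17, 10, 24 and 19, and cells just inside it, with 0.1% to 0.15%, numbered 4, 6, 16 and 13. Pooled over libraries, the atrial light chain gene *Myl7* was at 11519 CPM just outside, 13877 CPM just inside and 16306 CPM in cells with 0.2% or more, but the libraries differed. From just inside to 0.2% or more *Myl7* went from 10398 and 10327 to 21089 and 16832 CPM in the controls, and from 14643 and 17312 to 14331 and 15875 CPM in *Ets1* eKO. The ventricular light chain gene *Myl2* was at 2984, 2112 and 488 CPM pooled, and from just outside to just inside it went from 2459.8 and 4047 to 3642 and 4726 CPM in the controls and from 3092 and 2467 to 1093 and 927 CPM in *Ets1* eKO. Cells just outside the limit therefore differ from the bulk of cardiomyocytes in the same direction as the cells inside it.

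The question put to the *Sln*-rich cells was which other genes set them apart from the other cardiomyocytes of the same library. Since *Sln* chose the cells, this is a description with no test. Of 6196 genes with a mean of at least 20 CPM over the classes, 80 (1.29%) were 2-fold or more higher and 52 (0.839%) 2-fold or more lower in *Sln*-rich cells in each of the 4 libraries, with 5 CPM added to both levels. The atrial list gave 12 of the higher genes and the ventricular list 4 of the lower genes. The median log2 ratio of all counted genes was 0.0152. With TMM factors it shifted to -0.22 and the counts became 55 higher and 72 lower, so the balance of the counts turns with the scaling while no named gene called in either direction changed sign. Without control replicate 2, the library with the fewest *Sln*-rich cells, the calls numbered 223 in place of 132, and with 20 CPM added they numbered 85.

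Genes of atrial muscle were higher as a group. Of 15 counted genes of the 17 in the atrial list, 12 were 2-fold or more higher in each library, 0 were lower and 3 were neither, with a median log2 ratio of 2.07 beside 0.0152 for all counted genes. The summed level of the list was 34112, 33672, 38490.0 and 41298 CPM in *Sln*-rich cells and 10649, 11591, 10458 and 13995 CPM in the other cardiomyocytes. *Myl7* (chromosome 11, 5896637 to 5898782, minus strand), the regulatory light chain of atrial myosin, was its most abundant gene at 16084, 13152, 14622 and 16458 CPM against 1918, 2418, 1779 and 2190 CPM. This is a mean of 15079 ± 1509 CPM against 2076 ± 285 CPM (SD, n = 4 libraries), 7.27-fold. *Myl7*, *Cacna2d2* and *Cpne5* are thus higher in the same cells, and the stretches around their starts are shown to let their sequences be compared. The promoter table used, from RefSeq (GRCm38.p6), matched *Myl7*, *Cacna2d2* and *Cpne5* but had no entry for *Sln*. Its starts of *Cacna2d2* and *Cpne5* lie inside the gene spans given here, which are from GENCODE and begin further upstream. The stretches run from 250 bases before to 50 after the start, at chr11:5898733-5899032 on the minus strand for *Myl7*, chr9:107399630-107399929 on the plus strand for *Cacna2d2* and chr17:29237741-29238040 on the minus strand for *Cpne5*, with capitals for the letters of the NKX motif on the other strand.
Myl7: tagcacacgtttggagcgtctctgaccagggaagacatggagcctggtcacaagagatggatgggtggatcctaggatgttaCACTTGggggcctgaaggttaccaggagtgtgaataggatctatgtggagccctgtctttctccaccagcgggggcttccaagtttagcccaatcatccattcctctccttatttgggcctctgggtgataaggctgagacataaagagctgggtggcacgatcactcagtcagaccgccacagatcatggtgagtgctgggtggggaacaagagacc
Cacna2d2: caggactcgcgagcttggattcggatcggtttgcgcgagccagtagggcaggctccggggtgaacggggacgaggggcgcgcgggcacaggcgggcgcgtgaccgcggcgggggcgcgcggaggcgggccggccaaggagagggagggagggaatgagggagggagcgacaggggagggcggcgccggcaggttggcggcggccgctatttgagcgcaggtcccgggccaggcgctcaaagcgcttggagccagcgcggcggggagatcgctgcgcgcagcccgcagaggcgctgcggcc
Cpne5: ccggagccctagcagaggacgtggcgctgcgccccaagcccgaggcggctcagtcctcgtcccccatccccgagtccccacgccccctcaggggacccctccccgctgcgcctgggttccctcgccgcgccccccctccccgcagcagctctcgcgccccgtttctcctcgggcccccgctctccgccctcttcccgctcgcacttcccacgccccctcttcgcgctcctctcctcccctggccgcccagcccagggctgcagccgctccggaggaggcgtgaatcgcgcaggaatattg

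These stretches were searched on both strands for 5 motifs. The nuclear receptor half-site AGGTCA occurs in 16.3% of 32851 promoters of the same length and the T-box motif AGGTGT in 13.7% of them. The GATA factor motif AGATAA occurs in 11.2%, the NKX motif CAAGTG in 13.6% and the start-proximal motif TATAAA in 13.6%. The only match here was CAAGTG on the other strand of the *Myl7* stretch, 168 bases before the start, and with a lone match no motifs overlapped. A match is a description of letters and not of a bound site, and no match says only that these letters are not in this window.

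The other contractile genes of the atrial list followed *Myl7*. *Myl4*, the atrial essential light chain, was at 12310 ± 1546 CPM against 4731 ± 691 CPM, and *Myh6*, the alpha myosin heavy chain, at 4467 ± 853 CPM against 898 ± 168 CPM (SD, n = 4 libraries). Log2 ratios were 1.38 ± 0.16 and 2.31 ± 0.40. *Myl1*, a light chain shared with skeletal muscle, stood at 701 ± 204 CPM against 84.9 CPM and *Mybphl*, a myosin binding protein of atrial muscle, at 104 ± 34.8 CPM against 5.93 CPM, with log2 ratios of 2.94 and 3.25.

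The nuclear receptors that favour the atrial program were among the genes with the largest ratios. *Nr2f1* (chromosome 13, 78188973 to 78199757, minus strand) was at 114, 116, 225 and 302 CPM in *Sln*-rich cells against a mean of 4.65 CPM in the other cardiomyocytes, a log2 ratio of 4.21 ± 0.57. *Nr2f2* (chromosome 7, 70351944 to 70366735, minus strand) was at 86.9, 86.7, 149 and 181 CPM against 6.20 CPM, a log2 ratio of 3.49 ± 0.50. A UMI of *Nr2f1* was found in 58 of 95 *Sln*-rich cells (61.1%) and in 2.76% of the other cardiomyocytes. *Tbx5*, a T-box factor of the atria and left ventricle, was at 188 ± 76.4 CPM against 38.4 CPM, and the potassium channel genes *Kcnj3* and *Kcnj5*, whose products form the acetylcholine-gated channel of atrial cells, had log2 ratios of 2.07 ± 0.63 and 1.79 ± 0.17. The lipid transfer gene *Stard10* had a log2 ratio of 2.90 ± 0.17 and *Dkk3* of 1.93.

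The 3 counted atrial genes that were neither higher nor lower are *Nppa*, *Angpt1* and *Pam*. *Nppa*, which encodes atrial natriuretic peptide and is also high in embryonic ventricular trabeculae, was at 187, 1957, 2394 and 2545 CPM in *Sln*-rich cells and at 2339.95, 2342, 2487 and 4364 CPM in the other cardiomyocytes. Its level in *Sln*-rich cells was thus below that of the other cardiomyocytes in each library and far lower in control replicate 1. *Angpt1* ranged from 13.4 CPM in control replicate 1 to 297 CPM in *Ets1* eKO replicate 2, and *Pam*, an enzyme that matures peptide hormones, had a log2 ratio of 0.91 ± 0.21.

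Genes of ventricular muscle were lower as a group. All 7 counted genes of the 8 in the ventricular list were lower in each library, 4 of them by 2-fold or more in each, with a median log2 ratio of -2.75. The list summed to 5479, 10942, 2505 and 2666 CPM in *Sln*-rich cells against 29374, 27959, 26147 and 29396 CPM in the other cardiomyocytes. *Myl2* (chromosome 5, 122100951 to 122113472, plus strand), the ventricular regulatory light chain, was at 1537, 3012, 624 and 943 CPM against 13546, 12936, 11093 and 12536 CPM, a log2 ratio of -3.28 ± 0.88. Immune cells, which should lack it, held 349, 473, 237 and 472 CPM of *Myl2* with a UMI in 73.1% of cells, beside 81.1% of *Sln*-rich and 99.4% of the other cardiomyocytes, so part of what remained in *Sln*-rich cells lies within the range of free RNA. The light chain gene *Myl3* had a log2 ratio of -2.31 ± 1.07 and the beta myosin heavy chain gene *Myh7* of -2.46 ± 1.05.

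The ventricular transcription factors were not detected at this depth. *Hey2* (chromosome 10, 30832359 to 30842801, minus strand) gave 0 UMIs in the 95 *Sln*-rich cells and 67.7 CPM in the pooled other cardiomyocytes, where 3726 of 9187 cells (40.6%) had a UMI. Against a floor of 3 counts over the pooled *Sln*-rich cells (3.79 CPM) this is lower by a bound of 17.9-fold. *Irx4* was likewise at 0 UMIs against 48.9 CPM, at least 12.9-fold lower, and *Hand1* gave 0 UMIs too. These floors cover counting error only. *Mpped2*, the last counted ventricular gene beside *Pln*, stood at 73.5, 195, 24.3 and 0 CPM against a mean of 260.1 CPM.

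Genes of the layers of the ventricular wall were mostly lower or neither. In the compact list, both counted genes of 3, *Hey2* and the slow skeletal troponin gene *Tnnt1*, were lower, with *Tnnt1* at 331 CPM against 1184 CPM, a log2 ratio of -1.88 ± 0.48. In the trabecular list of 7, 5 genes were counted, of which 1 was higher, 1 lower and 3 neither. The higher gene was *Slit3*, a secreted guidance factor, at 307, 390.0, 146 and 297 CPM against a mean of 45.5 CPM, and the lower gene was the transcriptional regulator *Cited1*, at a log2 ratio of -3.13 ± 0.40. *Bmp10*, a growth factor of trabecular cardiomyocytes, gave 0 UMIs against 23.9 CPM, at least 6.17-fold lower.

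**Figure D1:**
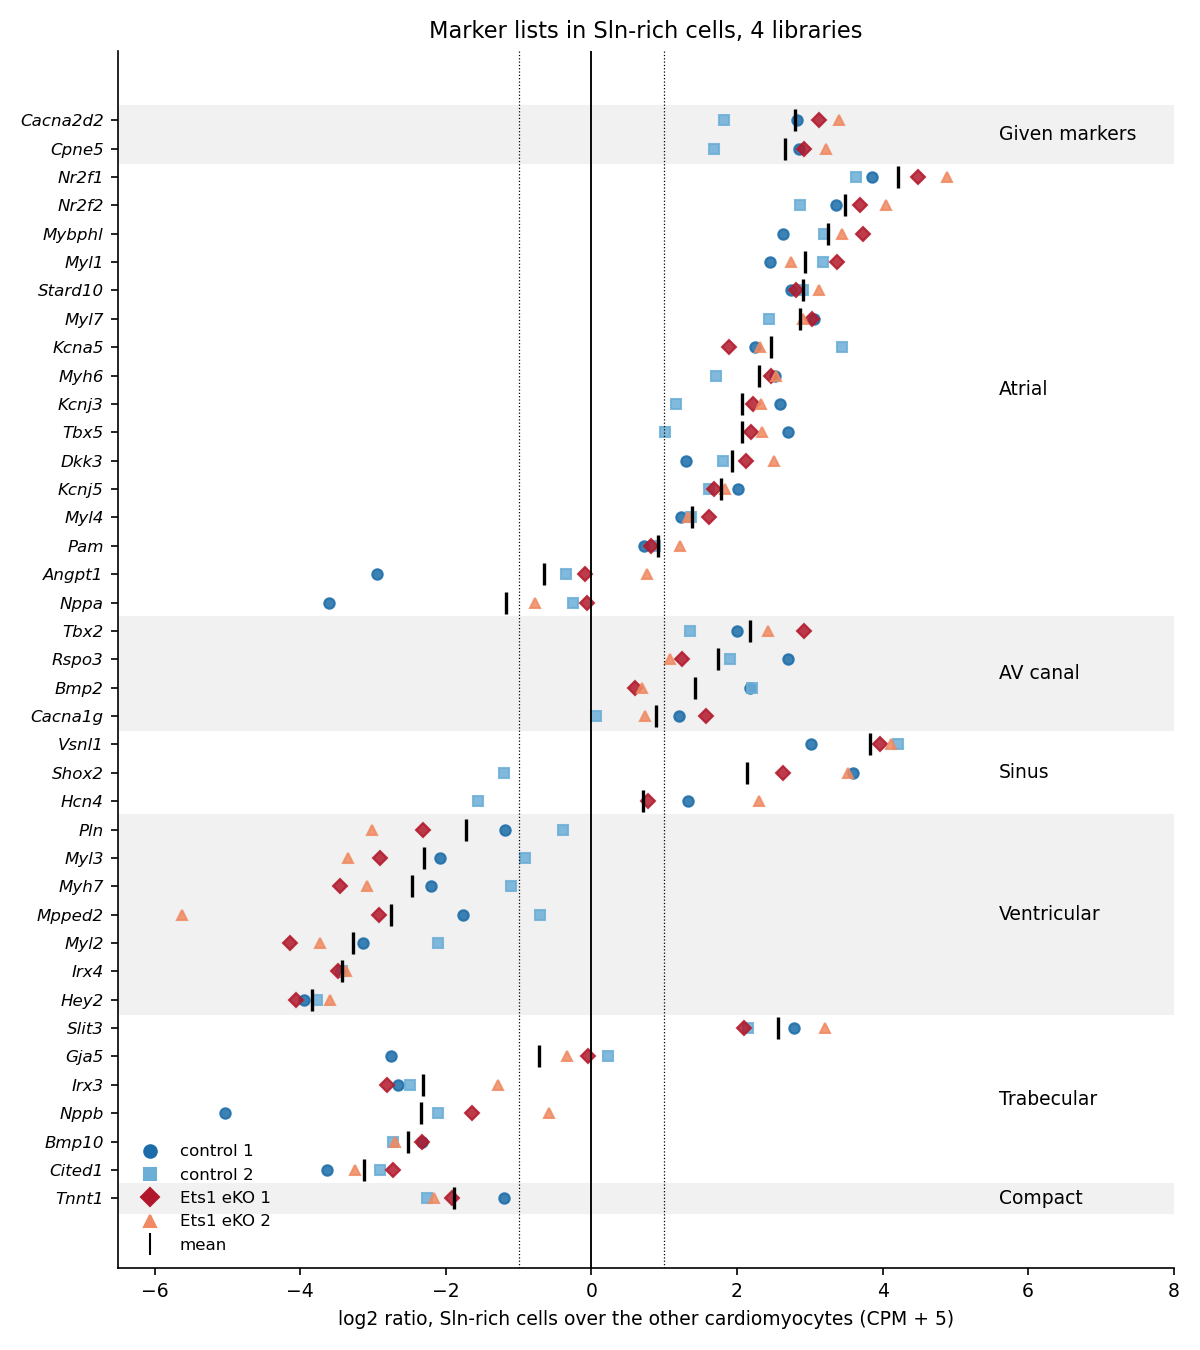
Log2 ratio of *Sln*-rich cells to the other cardiomyocytes, with 5 CPM added to both levels, for genes of the given, atrial, atrioventricular canal, sinus, ventricular, trabecular and compact lists. Points are the 4 libraries, bars their mean and dotted lines a 2-fold ratio. Atrial genes such as *Nr2f1* (mean 4.21) lie mostly above 0 and ventricular genes such as *Myl2* (mean -3.28) below it.

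Atrioventricular canal and sinus genes were higher in part. Of 6 atrioventricular canal genes 3 were counted, with 2 higher (*Tbx2* and *Rspo3*), 0 lower and a median log2 ratio of 1.73. *Tbx2*, a repressor of chamber genes, was at 42.5 ± 16.5 CPM against 5.23 CPM. *Bmp2*, a ligand of the canal myocardium, was at 86.9, 137, 38.2 and 23.2 CPM against a mean of 19.3 CPM, and it was neither. *Rspo3* (chromosome 10, 29452416 to 29535867, minus strand), a secreted enhancer of Wnt signalling, was at 421, 542, 139 and 92.9 CPM against 60.4, 141, 55.7 and 41.5 CPM, so that both *Ets1* eKO libraries were lower than both controls in *Sln*-rich cells. *Tbx3*, of the same list, is 0 by the choice of cells.

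Of the 6 sinus node and sinus venosus genes 3 were counted, with 2 higher, 0 lower and a median log2 ratio of 2.67. The higher genes were *Cpne5* and *Vsnl1*, a neuronal calcium sensor, which was at 141 ± 69.3 CPM against 4.41 CPM. *Shox2*, a transcription factor of the sinus node, ranged widely between libraries, at 80.2, 0, 59.0 and 102 CPM against a mean of 4.52 CPM. In control replicate 1 all 12 UMIs came from 1 of 16 cells, while 6 of 30 and 10 of 37 cells of *Ets1* eKO held a UMI. The pacemaker channel gene *Hcn4* was at 22.6 CPM against 7.74 CPM. Of the 4 outflow tract genes, only *Sema3c* was counted, and it was neither higher nor lower, at a log2 ratio of 0.64.

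Outside the lists, the largest ratio belonged to *Fgf12* (chromosome 16, 28160098 to 28753068, minus strand), an intracellular fibroblast growth factor homologue that is not secreted. It stood at 100.2, 477, 527 and 376 CPM in *Sln*-rich cells and at 3.20, 4.36, 6.32 and 8.02 CPM in the other cardiomyocytes, a log2 ratio of 4.95 ± 0.92. A UMI of *Fgf12* was found in 50 of 95 *Sln*-rich cells (52.6%) and 1.95% of the other cardiomyocytes. The caveolar coat gene *Cav1* was at 137 ± 36.5 CPM against 5.75 CPM and the zinc transporter gene *Tmem163* at 149 ± 24.2 CPM against 13.4 CPM, with log2 ratios of 3.69 and 3.07. *Trabd2b*, which encodes a protease of Wnt proteins, and the transcription factor gene *Sox5* had log2 ratios of 3.02 and 2.73.

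Among the genes lower in each library, several were near 0 in *Sln*-rich cells. *Slit2* (chromosome 5, 47983138 to 48307733, plus strand), a secreted guidance factor, was at 10.3 CPM in *Sln*-rich cells against 419 CPM in the other cardiomyocytes, a log2 ratio of -4.98 ± 1.03. *Gja1* (chromosome 10, 56377330 to 56402513, plus strand), the gap junction protein connexin 43, was at 9.11 CPM against 207 CPM, a log2 ratio of -4.13 ± 1.01. *Prdm16*, a transcriptional regulator of compact myocardium, gave a UMI in *Ets1* eKO replicate 2 and in no other library, against 112 CPM. The netrin receptor gene *Dcc* was at 0 UMIs against 49.8 CPM in the pooled other cardiomyocytes, at least 13.15-fold lower, while its ligand gene *Ntn1* was at 10.5 CPM against 97.3 CPM. *Rftn1* was also at 0 UMIs, at least 11.1-fold lower.

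Genes of calcium handling differed in a few members. Of 17 counted genes of 24, 2 were higher, 0 lower and 15 neither, with a median log2 ratio of -0.12. The higher genes were *Cacna2d2* and the skeletal calsequestrin gene *Casq1*, at 264 ± 106 CPM against 58.9 CPM. *Atp2a2*, the calcium pump that sarcolipin and phospholamban act on, was at 1745 ± 385 CPM against 875 CPM, a log2 ratio of 0.98. *Pln* was at 695, 1069, 271 and 181 CPM against 1590.4, 1402, 1361 and 1503 CPM. It was lower in each library, by 2-fold or more in some of them. The release channel gene *Ryr2* was at 1225 CPM against 1325 CPM and the exchanger gene *Slc8a1* at 5295 CPM against 6564 CPM. *Ryr3*, a release channel outside the list, was higher at 912 ± 328 CPM against 116 CPM.

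Of 10 counted channel genes of 13, 2 were higher (*Kcnj3* and *Kcnj5*), 3 lower and 5 neither, with a median log2 ratio of -0.89. *Gja1*, above, was among the lower genes with *Kcnq1* and *Kcnd2*, which encode repolarizing potassium channels and had log2 ratios of -1.87 and -1.27. *Kcna5*, the atrial potassium channel gene, did not reach the level for counting, at 29.6 CPM against 0.690 CPM.

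Of 17 counted sarcomere genes of 21, 6 were higher, 3 lower and 8 neither, with a median log2 ratio of 0.66. Besides the atrial chains, *Myl9*, a light chain of smooth muscle and early atria, was higher at 2784 CPM against 858 CPM. The 3 lower genes were *Myl2*, *Myh7* and *Tnnt1*, and the thin filament gene *Tpm1* was neither at a log2 ratio of 0.66. Of 16 counted cardiac transcription factor genes of 26, 4 were higher, 3 lower and 9 neither, and 8 of the 26 gave 0 UMIs, *Hey2*, *Irx1*, *Irx2*, *Irx4*, *Irx5*, *Hand1* and *Isl1* as well as *Tbx3*, which the choice of cells holds at 0. The median log2 ratio of the list was 0.57 beside 0.0152 for all counted genes, and *Gata4* at -0.01, *Mef2c* at -0.05 and *Nkx2-5* at 0.39 were among its genes that were neither. Of the 11 retinoic acid genes 2 were counted and both were neither, of the 5 natriuretic peptide genes 2 were counted and both were neither, and of the 6 sex-linked genes 3 were counted and all were neither.

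**Figure D2:**
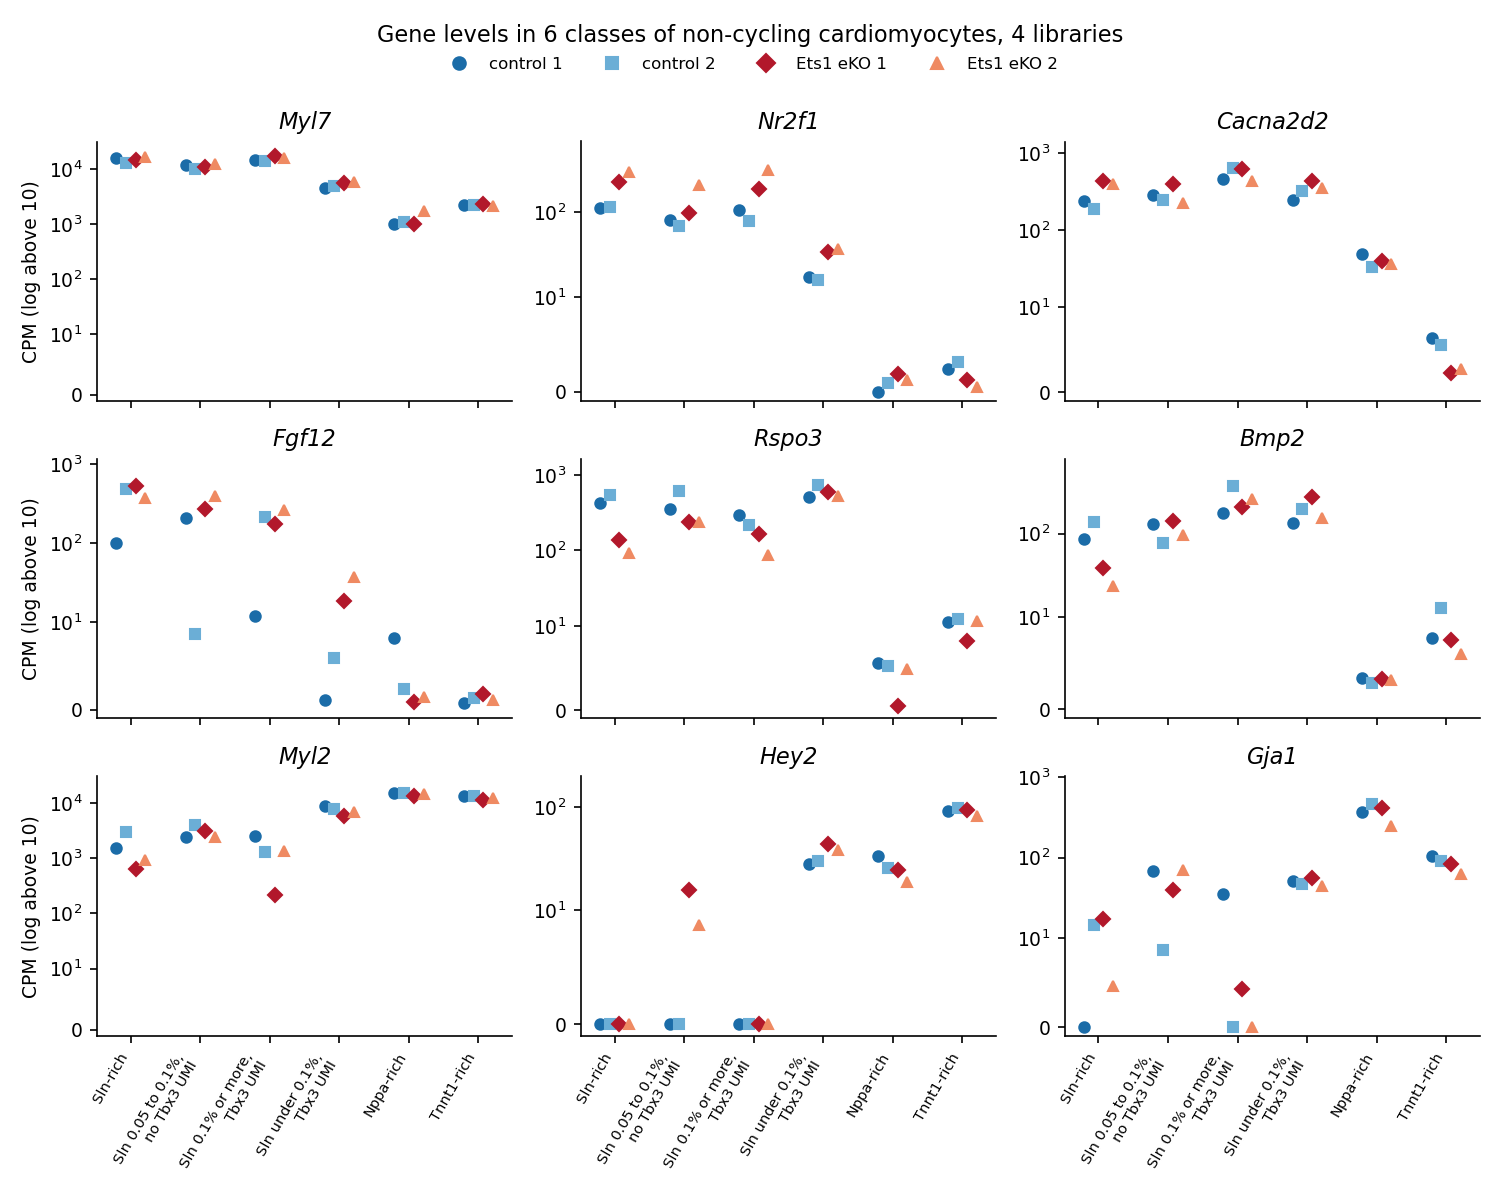
Level in CPM (axis linear under 10 and logarithmic above) of *Myl7*, *Nr2f1*, *Cacna2d2*, *Fgf12*, *Rspo3*, *Bmp2*, *Myl2*, *Hey2* and *Gja1* in *Sln*-rich cells, cells just outside the *Sln* limit, *Tbx3*-positive cells with much or little *Sln*, *Nppa*-rich cells (at least 0.5% of UMIs) and *Tnnt1*-rich cells (at least 0.2%). Points are libraries. *Sln*-rich cells with and without *Tbx3* are high in *Myl7* and low in *Myl2*, *Hey2* and *Gja1*.

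Markers of other cell types were mostly low in the *Sln*-rich cells. Of the 7 endothelial genes, the 3 not used to choose the cells (*Cd93*, *Flt1* and *Ecscr*) summed to 0, 0, 6.94 and 9.29 CPM, with *Cd93* the most abundant of them at 3.19 CPM. Of the 4 that limited the choice, *Egfl7* was the most abundant at 6.68, 14.4, 3.47 and 13.9 CPM, and *Cdh5* gave 0 UMIs. The 8 fibroblast and cushion genes summed to 13.4, 14.4, 17.3 and 23.2 CPM against 126, 84.8, 109 and 129 CPM in the other cardiomyocytes, with *Col3a1* most abundant at 6.37 CPM. Fibroblast genes were thus lower than in the other cardiomyocytes. The 5 immune genes summed to 6.68, 0, 0 and 13.9 CPM, with *Lyz2* at 0 UMIs, and the 3 neural crest genes to 6.68, 7.22, 6.94 and 18.6 CPM. The 5 epicardial genes summed to 20.0, 36.1, 59.0 and 13.9 CPM, of which *Krt19* was the most abundant at 26.1 CPM. Among 5 skeletal muscle genes 4 gave 0 UMIs, and the list summed to 0, 0, 0 and 9.29 CPM.

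The smooth muscle, erythroid and epicardial lists each held at least 1 counted gene, which for the epicardial list was *Krt19* and was neither. Of 4 smooth muscle genes only *Cnn1*, a calponin also made by embryonic cardiomyocytes, was counted, at 371 CPM against 167 CPM, and it was neither. The 6 erythroid genes summed to 160.4, 65.0, 149 and 204 CPM in *Sln*-rich cells against 1821, 61.4, 1679 and 1876 CPM in the other cardiomyocytes. The median hemoglobin share of UMIs per cell was nearly the same in both classes. It was 0.0127%, 0.0076%, 0.0136% and 0.0183% in *Sln*-rich cells and 0.0124%, 0.0055%, 0.0133% and 0.0178% in the other cardiomyocytes. The gap between the sums is therefore not seen in the median cell. Control replicate 2 thus held the lowest hemoglobin level in both classes. Of 5 counted erythroid genes 1 was lower and 4 were neither. The highest doublet scores, removed at 0.8% per 1000 barcodes, took 3 of the 95 *Sln*-rich cells (0, 0, 1 and 2).

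The genes most like *Sln* across cells were sought among the *Sln*-rich and other cardiomyocytes together, by Pearson correlation of log levels per cell, averaged over 4 libraries. Cells of a library share its depth and free RNA, so these values only describe. The highest were *Cav1* at 0.536 (0.459 to 0.626 between libraries), *Nr2f1* at 0.522, *Vsnl1* at 0.468 and *Nr2f2* at 0.454. *Sox5*, *Fgf12*, *Mybphl*, *Cacna2d2*, *Trabd2b* and *Ryr3* followed, between 0.379 and 0.423. All of them were already seen as higher in *Sln*-rich cells.

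*Sln*-rich cells differed among themselves in *Nppa*. Of the 95 cells 38 held no UMI of *Nppa*, the median share was 0.0121% of UMIs, and 75 cells lay under 0.1%. Another 13 cells lay between 0.1% and 0.5%, and 7 cells at 0.5% or more, with 0, 1, 2 and 4 of these in the 4 libraries. A few cells carried most of the summed level, since the highest cell gave 11 of 28, 188 of 271, 503 of 690 and 266 of 548 UMIs of *Nppa*. The *Nppa* levels of the libraries therefore rest on few cells.

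Cells high and low in *Nppa* differed in other genes too, here as pooled CPM with no test. The 75 low cells came as 15, 6, 25 and 29 from the 4 libraries and the 7 high cells as 0, 1, 2 and 4, so pooled values also carry differences between libraries. *Fgf12* was at 1656 CPM in the 7 high cells, 974 CPM in the 13 between and 163 CPM in the 75 low cells. *Myl1* was at 1656 CPM in high against 558 CPM in low cells and *Stard10* at 290.3 against 122 CPM. The reverse held for *Rspo3*, at 17.1 CPM in high and 313 CPM in low cells, for *Nr2f2*, at 34.2 and 139 CPM, for *Cacna2d2*, at 137 and 385 CPM, and for *Myl2*, at 222 and 1622 CPM. Within the *Ets1* eKO libraries *Rspo3* was at 43.9 and 0 CPM in high and 163 and 121 CPM in low cells, and *Myl2* at 87.8 and 384 CPM in high and 757 and 1140.4 CPM in low cells. *Myl7* was high in both, at 18836 and 14383 CPM. The libraries differed for *Stard10*, which in high cells was at 568 CPM in control replicate 2 and 43.9 and 384 CPM in *Ets1* eKO. These levels came from 7, 1 and 9 UMIs. That of *Ets1* eKO replicate 1 lay below the 132 CPM of all its *Sln*-rich cells.

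**Figure D3:**
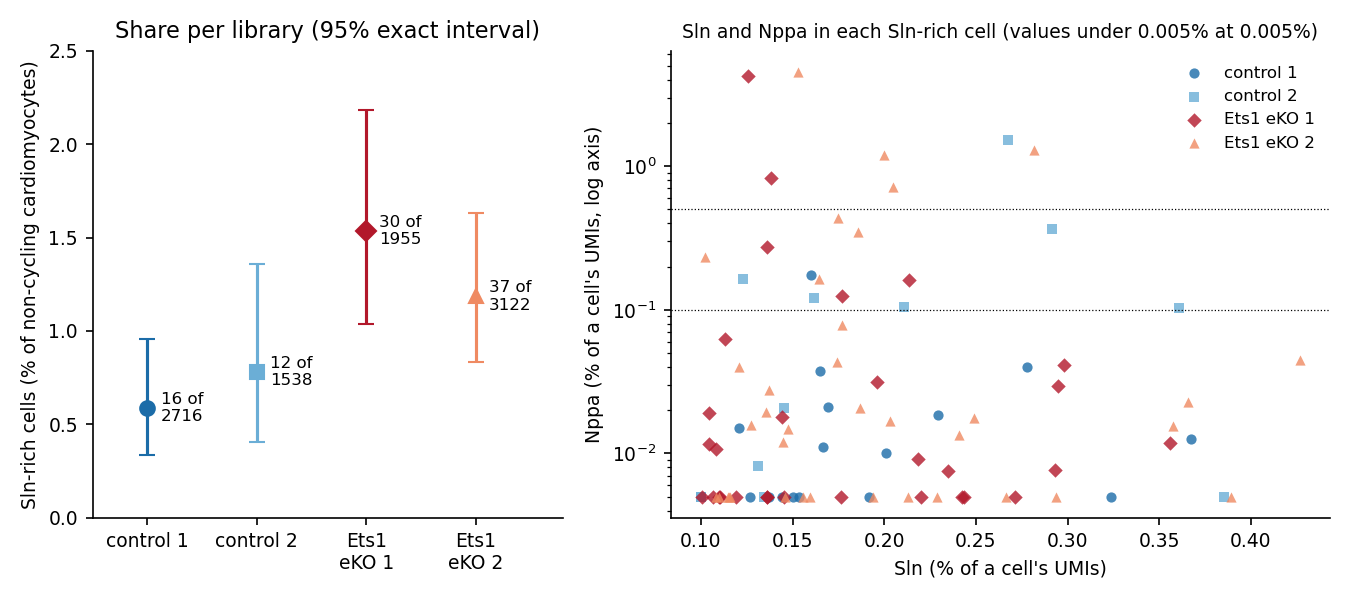
Left, *Sln*-rich cells as a percentage of non-cycling cardiomyocytes in each library, with exact 95% intervals. Right, percentage of UMIs from *Sln* and from *Nppa* (logarithmic axis, values under 0.005% drawn at 0.005%) in each of the 95 cells, with dotted lines at 0.1% and 0.5% of *Nppa*. The *Ets1* eKO shares, 1.53% and 1.19%, lie above the control shares, 0.589% and 0.780%, and 75 cells lie under 0.1% of *Nppa*.

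The *Sln*-rich cells were set beside 4 other classes of non-cycling cardiomyocytes, among them the 49 cells with enough *Sln* and a UMI of *Tbx3*. Pooled *Myl7* was at 15141 CPM in *Sln*-rich cells and 15936 CPM in those cells, against 5132 CPM in 615 *Tbx3*-positive cells with little *Sln*, 1265 CPM in 1189 *Nppa*-rich cells and 2250.4 CPM in 1743 *Tnnt1*-rich cells. *Myl2* was at 1301 and 999 CPM in the *Sln* classes and 7523, 14625 and 12437 CPM in the others. *Rspo3* was at 250.1 and 197 CPM in the *Sln* classes, below the 598 CPM of *Tbx3*-positive cells, and *Fgf12* was at 397 CPM in *Sln*-rich cells and 164 CPM with *Tbx3*. *Bmp2* differed between the *Sln* classes, at 60.6 CPM without and 257 CPM with *Tbx3*. These classes were chosen by the genes they are named for, and no test was made between them.

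Few cells with enough *Sln* were above the cycling limit. Of 112 cells with enough *Sln* and no *Tbx3*, 17 (15.2%) were above the cycling limit, against 8680 of 17867 (48.6%) cardiomyocytes with less *Sln*. With each cell thinned to 2000 UMIs, 19.6% and 51.4% held a UMI of a cycling gene. Free RNA of cycling genes also enters these shares.

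How common the cells are was compared between the groups. *Sln*-rich cells made up 0.589% (exact 95% interval 0.337% to 0.955%) and 0.780% (0.404% to 1.36%) of the non-cycling cardiomyocytes of the control libraries. The *Ets1* eKO libraries gave 1.53% (1.04% to 2.18%) and 1.19% (0.836% to 1.63%). Both *Ets1* eKO libraries thus lay above both controls, with means of 1.36% ± 0.247 against 0.685% ± 0.135 (SD, n = 2), a ratio of 1.99. The exact permutation test, two-sided, gave p = 0.333, the smallest that 2 against 2 libraries allow, so the design cannot show this difference at 0.05. With each cell thinned to 2000 UMIs the shares were 0.820%, 1.57%, 2.11% and 1.38%, and the groups overlapped (exact permutation p = 0.667). The groups also overlapped with no limit on *Tbx3*, at 0.884%, 1.63%, 2.61% and 1.41%. *Tbx3*-positive cells with little *Sln*, another minor class, made up 6.19%, 10.4%, 7.21% and 4.68%, with overlapping groups. How the ventricles were separated from the atria is not given, and whether atrial tissue carried along differed in amount between the libraries was not tested.

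*Ets1* eKO was compared with control within the *Sln*-rich cells to see which of their genes differ with the loss of endothelial *Ets1*. A single gene passed the test, *Itm2a* (chromosome X, 107397099 to 107403376, minus strand, ENSMUSG00000031239), which encodes a membrane protein of differentiating mesenchymal and muscle cells. Its level was 528, 253, 34.7 and 37.2 CPM, from 79, 35, 10 and 8 UMIs, so it fell in *Ets1* eKO. The log2 change was -3.42 (SE 0.406), lower in both *Ets1* eKO libraries than in both controls (edgeR quasi-likelihood test, Benjamini-Hochberg adjusted p = 0.00485). Over 11 alternatives that tested it the log2 change ran from -3.78 to -2.87 and adjusted p from 9.33e-19 to 0.0398. In the alternative with *Sln* at 0.2% or more of UMIs it was not tested, and there it stood at 0, 177, 28.8 and 12.8 CPM, with overlapping groups.

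The level of *Itm2a* rests on few cells. A UMI was found in 5 of 16, 5 of 12, 6 of 30 and 6 of 37 *Sln*-rich cells, and the highest cell of control replicate 1 gave 50 of its 79 UMIs. Without the highest cell of each library the levels were 212, 201, 21.5 and 29.8 CPM. Cells near the *Sln* limit held most of it in the controls, since the 4, 6, 16 and 13 cells with 0.1% to 0.15% of UMIs from *Sln* gave 76 of 79, 23 of 35, 6 of 10 and 3 of 8 UMIs. In the other *Sln*-rich cells, with 0.15% or more (a division made after the values were seen), *Itm2a* was at 26.4, 180.4, 28.6 and 36.3 CPM, and the groups overlapped. The groups are therefore separated by a few control cells near the limit. Immune cells held 12.0, 12.2, 13.5 and 26.7 CPM of *Itm2a*, and the other cardiomyocytes 75.6, 118, 60.9 and 86.3 CPM. The gene is X-linked, and the part of sex in its change was not tested.

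Among 3273 genes tested, of 13843 with a UMI, *Itm2a* was the only gene called by edgeR (0.0306%). Unadjusted p was under 0.05 for 206 genes (6.29%), and by DESeq2 4 genes passed (*Itm2a*, *Myh7*, *Pln* and *Rspo3*). Groups did not overlap for 1141 genes (34.9%), 600 higher and 541 lower in *Ets1* eKO. Leaving out a library moved the number of calls. It became 23 when control replicate 1 was left out and 47 when control replicate 2 was, 15 when *Ets1* eKO replicate 1 was left out and 7 when *Ets1* eKO replicate 2 was, where the lone library of a group is assumed to vary like the other group. With *Sln* at 0.2% or more the count was 0 in edgeR, with 69 genes at an unadjusted p under 0.05. The median mitochondrial share of UMIs was lower in both *Ets1* eKO libraries, at 6.29%, 6.54%, 5.21% and 4.50% in *Sln*-rich cells and 6.05%, 6.02%, 4.78% and 4.82% in the other cardiomyocytes, and its part in the changes given here and below was not tested.

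Of genes below the threshold, the lowest p values on the lower side after *Itm2a* belonged to *Rspo3*, *Pln*, *Myh7* and *Myl3*. *Rspo3* was at 421, 542, 139 and 92.9 CPM, a log2 change of -2.03 (SE 0.323, edgeR adjusted p = 0.0523, with adjusted p from 1.17e-08 to 0.783 over 12 alternatives). *Pln* was at 695, 1069, 271 and 181 CPM, a log2 change of -1.95 (SE 0.336, edgeR adjusted p = 0.0725, 1.29e-09 to 0.743 over 12 alternatives). These are the Wnt enhancer and the pump inhibitor described above. *Myh7* was at 1042, 2470.1, 409 and 418 CPM, a log2 change of -2.10 (SE 0.379, edgeR adjusted p = 0.0827, 4.34e-14 to 0.743). *Myl3* was at 2132, 4196, 1176 and 1124 CPM, a log2 change of -1.48 (SE 0.318, edgeR adjusted p = 0.249, 1.29e-08 to 0.783). All 4 were lower in both *Ets1* eKO libraries than in both controls over all *Sln*-rich cells. With all 4 libraries, *Rspo3*, *Pln* and *Myh7* passed by DESeq2, with total UMI counts and without the filter on low counts. They also passed with a replicate block and with the limits of the study on cells. *Myl3* passed with total UMI counts and without the filter, and with the highest doublet scores removed none of the 4 genes passed. Some also passed when a library was left out. For *Rspo3* adjusted p was then 1.17e-08 (control replicate 1), 0.000158 (control replicate 2) or 0.00398 (*Ets1* eKO replicate 1), and for *Pln* 1.29e-09, 0.000383 and 0.00398 in the same order. *Myh7* passed with any of the 4 left out, with 4.34e-14, 0.00908, 0.00286 and 0.0100 in the order of the libraries, and *Myl3* with control replicate 1 (1.29e-08) or *Ets1* eKO replicate 1 (0.0249) left out. Single cells carried much of these levels, as in *Myh7*, where the highest cell gave 79 of 156, 114 of 342, 55 of 118 and 66 of 90 UMIs. Cells near the *Sln* limit (0.1% to 0.15%) also did, except in *Ets1* eKO replicate 2. They gave 78 of 104, 110 of 148, 65 of 78 and 7 of 39 UMIs of *Pln*. For *Myh7* they gave 119 of 156, 219 of 342, 109 of 118 and 15 of 90. For *Myl3* they gave 208 of 319, 396 of 581, 309 of 339 and 74 of 242. Within these cells the groups did not overlap for the 3 genes, as in *Pln* at 2168, 1529, 438 and 90.1 CPM. In *Sln*-rich cells with 0.15% or more the groups overlapped for these 3 genes, at 229, 571, 92.9 and 232 CPM for *Pln*, 325, 1849, 64.3 and 545 CPM for *Myh7* and 976, 2782, 214 and 1221 CPM for *Myl3*, while *Rspo3* was at 185, 346, 121 and 109 CPM. With 0.2% or more none of the 4 overlapped or passed.

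On the higher side the lowest p values, also below the threshold, belonged to *Thsd7b*, *Syt1*, *Filip1l*, *Ccnd2* and *Gm49708*. *Thsd7b* (chromosome 1, 129273302 to 130219278, plus strand) gave 0 UMIs in both controls and 17 and 18 UMIs in *Ets1* eKO, at 59.0 and 83.6 CPM (edgeR adjusted p = 0.249, with 3 of 10 alternatives under the threshold). *Syt1*, the calcium sensor of synaptic vesicles, was at 13.4, 36.1, 108 and 130.0 CPM, a log2 change of 2.24 (edgeR adjusted p = 0.293, 0.00437 to 1.00 over 11 alternatives). These genes differ in depth, and all but *Thsd7b* had UMIs in each library. *Filip1l* was at 86.9, 123, 253 and 288 CPM, a log2 change of 1.36 (edgeR adjusted p = 0.320, 0.0116 to 1.00 over 12 alternatives). *Ccnd2*, a cyclin of the G1 phase, was at 187, 238, 524 and 455 CPM, a log2 change of 1.20 (edgeR adjusted p = 0.359, 0.0115 to 1.00). *Gm49708* was at 140.3, 253, 430.2 and 520.1 CPM, a log2 change of 1.26 (edgeR adjusted p = 0.359, 0.000835 to 1.00). All 5 were higher in both *Ets1* eKO libraries than in both controls. With control replicate 2 left out all 5 passed, at adjusted p of 0.0130, 0.00437, 0.0116, 0.0115 and 0.000835 in the order above.

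**Figure D4:**
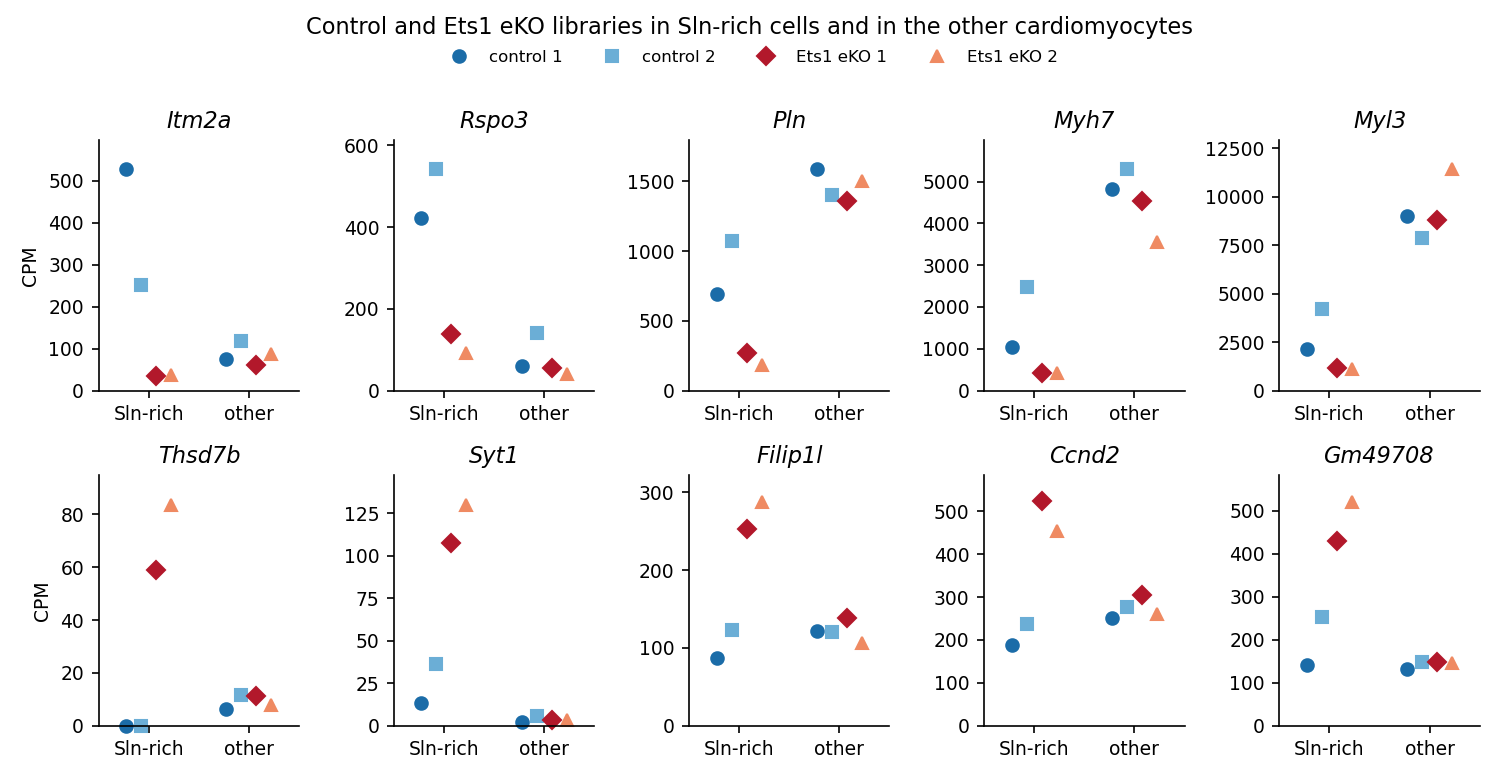
Level in CPM of *Itm2a*, *Rspo3*, *Pln*, *Myh7*, *Myl3*, *Thsd7b*, *Syt1*, *Filip1l*, *Ccnd2* and *Gm49708* in the *Sln*-rich and the other cardiomyocytes of each library. Points are libraries, colored by group. In *Sln*-rich cells both *Ets1* eKO libraries lie below both controls for the first 5 genes and above them for the last 5, and *Itm2a* alone passed the edgeR test.

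By list, the ventricular genes leaned to one side in *Ets1* eKO without passing the test. Cells near the *Sln* limit held much of their level in the controls and in *Ets1* eKO replicate 1. All 5 tested ventricular genes (*Myl2*, *Myl3*, *Myh7*, *Mpped2* and *Pln*) were lower in *Ets1* eKO at an unadjusted p under 0.05, with 0 past the adjusted threshold and a median log2 change of -1.95 beside 0.0212 for all genes tested. Single cells held much of the *Myl2* sums, as the highest cell gave 99 of 230, 241 of 417, 47 of 180 and 94 of 203 UMIs. The median *Sln*-rich cell held 4.5, 3.5, 2 and 1 UMIs of *Myl2*. Whether the lower sums come from fewer cells rich in these genes or from lower levels per cell was not tested. *Myl2* was at 3642, 4726, 1093 and 927 CPM in *Sln*-rich cells with 0.1% to 0.15% of UMIs from *Sln*, and at 871, 1158, 129 and 952 CPM in those with 0.15% or more, where the groups overlapped. With 0.2% or more *Myl2* was at 617, 1325, 144 and 268 CPM, and the groups did not overlap. The cells near the limit gave 9 of 11 and 17 of 27 control UMIs of *Mpped2* and 78 of 104 and 110 of 148 of *Pln*. In *Ets1* eKO replicate 1 they gave 7 of 7 and 65 of 78. In *Ets1* eKO replicate 2, which had no UMI of *Mpped2*, they gave 7 of 39 of *Pln*. In immune cells, which show free RNA, *Myl2* was at 349, 473, 237 and 472 CPM and *Pln* at 46.6, 48.8, 25.5 and 46.6 CPM, with overlapping groups. Both tested atrioventricular canal genes, *Rspo3* and *Bmp2*, were also lower at an unadjusted p under 0.05, and *Bmp2* had a log2 change of -1.80 (edgeR adjusted p = 0.359).

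Atrial genes showed less. Of 15 tested 3 were higher and 0 lower at an unadjusted p under 0.05, with a median log2 change of 0.30. These were *Nr2f1*, with a log2 change of 1.18 (edgeR adjusted p = 0.359), *Nr2f2*, with 0.91 (adjusted p = 0.676), and *Angpt1*. Of the given markers, *Sln* itself had a log2 change of -0.08, *Cacna2d2* of 0.96 (edgeR adjusted p = 0.486) and *Cpne5* of 0.56 (adjusted p = 0.841). Of 17 calcium handling genes 2 were higher and 3 lower at an unadjusted p under 0.05, of 21 sarcomere genes 1 and 4, of 12 transcription factor genes 2 and 1, and of 5 channel genes 0 and 1, beside 206 of all 3273 genes tested (6.29%) in either direction. In the trabecular and sinus lists, 3 genes each were tested and 0 reached that level.

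Whether the change in *Sln*-rich cells differs from that in the other cardiomyocytes was tested by the interaction of class and genotype. Of 13509 genes 11 (0.0814%) differed, 10 with a more negative change in *Sln*-rich cells and 1 with a more positive one, while 489 had an unadjusted p under 0.05. *Itm2a* differed by -3.07 on the log2 scale (edgeR adjusted p = 2.15e-10, 2.83e-16 to 1 over 11 alternatives), since its change in the other cardiomyocytes was -0.27. With *Sln* at 0.2% or more this difference was -1.70 and did not pass (adjusted p = 1). At that limit the 4 genes that passed were *Myh7*, *Myl2*, *Myl3* and *Pln*, each with a more negative change in *Sln*-rich cells. *Pln* differed by -1.89 (edgeR adjusted p = 0.000276, 4.31e-11 to 1), with a change of 0.04 in the other cardiomyocytes, and *Myh7* by -1.67 (adjusted p = 0.0125, 6.40e-12 to 1). When control replicate 2 was left out *Pln* (adjusted p = 0.0657) and *Myh7* (0.741) did not pass, when *Ets1* eKO replicate 2 was left out neither did (both 1), and *Myh7* did not pass when *Ets1* eKO replicate 1 was (1). *Rspo3* did not pass, at -1.12 (adjusted p = 0.338), and was at 60.4, 141, 55.7 and 41.5 CPM in the other cardiomyocytes. DESeq2 called *Itm2a* and *Pln*. The count of 11 became 19 when control replicate 1 was left out, 6 when *Ets1* eKO replicate 1 was and 1 when *Ets1* eKO replicate 2 was.

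In the other cardiomyocytes themselves, 2 of 14807 genes (0.0135%) passed in edgeR, with 1712 at an unadjusted p under 0.05 and 31 called by DESeq2. *Sorcs2*, a sorting receptor gene, fell in *Ets1* eKO, with 52.7, 53.9, 19.8 and 16.3 CPM and a log2 change of -1.46 (edgeR adjusted p = 0.0316, 1.63e-13 to 0.00918 over 9 alternatives), lower in both *Ets1* eKO libraries. The embryonic globin gene *Hbb-bh1* had a log2 change of 4.74 (edgeR adjusted p = 0.0476, 6.75e-19 to 0.0159 over 9 alternatives), from 4 and 2 UMIs to 53 and 87 UMIs. Globin RNA also differed between libraries outside cardiomyocytes, as the erythroid list summed to 2018, 115, 7140.1 and 7859.5 CPM in immune cells, and the part of free RNA in the *Hbb-bh1* change was not tested. The count of genes that passed became 74 when control replicate 1 was left out, 32 when control replicate 2 was, 2223 when *Ets1* eKO replicate 1 was and 237 when *Ets1* eKO replicate 2 was.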

How the data were processed

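Droplet single-cell RNA sequencing measured 4 libraries (2 control, 2 *Ets1* eKO). The authors deposited UMI counts per gene and barcode, made with Cell Ranger 7.1.0 on mm10 according to their processing notes, which also name Seurat 4.3.0. The methods of the study name CellBender for background RNA and DoubletFinder for doublets. Whether doublets or background counts were removed before deposit is not stated. Matrices of 32285 gene IDs were read as they are, with the 38 symbols that have at least 2 IDs kept apart by ID. Cells were chosen by the limits given in the report. The members and lists were chosen with earlier results of these data known.

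Counts were summed per library and class. Genotypes were compared with edgeR 4.0.16 (quasi-likelihood, TMM, filterByExpr, Benjamini-Hochberg at 0.05) in R 4.3.3, the difference between classes with library, class and class by group as terms, and shares of cells with an exact permutation test, two-sided. Intervals are exact Clopper-Pearson 95% intervals and cover counting error only. Ratios between classes have 5 CPM added, need a mean of 20 CPM and were not tested. Python 3.11.15, numpy 2.4.6, scipy 1.17.1, pandas 2.3.3, scanpy 1.11.5, anndata 0.12.19 and matplotlib 3.10.9 were used with seed 0. Positions are from GENCODE vM21 on GRCm38. The tests were checked on simulated data.

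Named genes are those of the rule, the given markers, list genes at 20 CPM or more in either class, the 12 genes with the largest smallest ratio in each direction, genes past the threshold or the 5 lowest p in each direction, *Ets1* and the 10 genes most like *Sln*. *Ryr3* and *Sox5* come from the last part. Lists covered cardiomyocyte, atrial, ventricular, compact, trabecular, atrioventricular canal, sinus, outflow tract, skeletal muscle, endothelial, fibroblast, smooth muscle, epicardial, immune, erythroid and neural crest markers, and calcium handling, channel, sarcomere, retinoic acid, transcription factor, natriuretic peptide and sex-linked genes. Genes named outside this rule, those of the difference between classes included, were chosen after their values were seen. Some genes of the lists are not reported here.

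Other settings tried were total UMI counts in place of TMM, DESeq2 1.42.0, keeping genes of low counts, a replicate block, each library left out, pseudocounts of 1 and 20 CPM, *Sln* at 0.2% or 0.05% of UMIs or at least 5 UMIs, cells thinned to 2000 UMIs, doublets removed, the limits of the study on genes and on mitochondrial, ribosomal and hemoglobin UMIs (without its limits on reads, exon ratios and doublet scores), all kept cells as the denominator, and, added later, no limit on *Tbx3* and a crossed pairing.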

Additional observations from a re-analysis of the deposited data

Results flagged for a closer look

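The change of 11 genes in *Ets1* eKO differed between *Sln*-rich and other cardiomyocytes by the test of the difference itself (edgeR, Benjamini-Hochberg adjusted p, log2 scale, *Sln*-rich change minus the other), and each was tested in 11 alternatives. *Itm2a* differed by -3.07 (adjusted p = 2.15e-10), from -3.81 to -1.70 over the alternatives, of which 10 passed and the alternative with *Sln* at 0.2% or more of UMIs, where its *Sln*-rich level was 0, 177, 28.8 and 12.8 CPM, did not, and 4 cells with 0.1% to 0.15% gave 76 of the 79 UMIs of control replicate 1. *Pln* differed by -1.89 (adjusted p = 0.000276), from -2.43 to -1.45, and 9 passed. *Mpped2*, at 73.5, 195, 24.3 and 0 CPM in the *Sln*-rich cells of the 4 libraries, differed by -2.90 (adjusted p = 0.00101), from -13.25 to -2.01, and 7 passed. *Fabp5*, at 1363, 108, 291 and 130.0 CPM beside 4485, 4074, 5122 and 6117 CPM in endothelial cells, differed by -1.63 (adjusted p = 0.00128), from -2.82 to 0.68, and 7 passed. *Myh7* differed by -1.67 (adjusted p = 0.0125), from -3.43 to -1.08, and 7 passed. *Tnni2*, with 1, 7, 1 and 0 UMIs, of which 1 cell gave 6 of the 7, differed by -5.13 (adjusted p = 0.0199), from -12.91 to -3.27, and 6 passed. *Ddc*, at 114, 289, 65.9 and 13.9 CPM, where the highest cells of the controls gave 14 of 17 and 23 of 40 UMIs, differed by -1.86 (adjusted p = 0.0225), from -3.48 to -1.002, and 7 passed. *Myl3* differed by -1.66 (adjusted p = 0.0231), from -2.68 to -1.04, and 7 passed. *Sfrp1*, at 1009, 1040.0, 531 and 344 CPM, differed by -1.31 (adjusted p = 0.0296), from -1.85 to -0.96, and 6 passed. *Thsd7b*, at 0 UMIs in both controls, differed by 12.33 (adjusted p = 0.0344), a fitted value that depends on the prior count and is no bound, from 5.58 to 12.74, and 4 passed. *Fabp4*, at 214, 43.3, 45.1 and 37.2 CPM, differed by -2.15 (adjusted p = 0.0412), from -2.95 to -1.20, and 5 passed. For each gene the highest adjusted p over the alternatives was 1. When *Ets1* eKO replicate 2 was left out, 1 of the 11 genes (*Itm2a*) passed, and when control replicate 2 was, 4 did.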

How the results depend on the processing

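The ratio of *Sln*-rich shares stayed between 1.46 and 2.31 in the 12 alternatives, with p no smaller than the design allows. Genes called between *Ets1* eKO and control in *Sln*-rich cells numbered 1, against 4 by DESeq2, 5 with total counts, 24 without a filter on low counts, 4 with the limits of the study on genes and on mitochondrial, ribosomal and hemoglobin UMIs, 0 with *Sln* at 0.2% or more and 6 with no limit on *Tbx3*, an alternative chosen after seeing the data. Leaving out a library gave 7 to 47 calls there, 32 to 2223 in the other cardiomyocytes and 1 to 19 for the difference between classes. In the other cardiomyocytes, calls numbered 31 by DESeq2 and 146 without the filter. For the difference between classes they were 2 by DESeq2 and 4 with *Sln* at 0.2% or more (*Myh7*, *Myl2*, *Myl3* and *Pln*). The difference for *Fabp5* reversed to 0.68 without control replicate 1 and was -2.82 without control replicate 2. Genes 2-fold apart in each library numbered 132, against 85 with 20 CPM added and 141 to 223 when a library was left out, where fewer libraries have to meet the fold. For the other changes the cause was not tested.

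With replicate numbers as a paired replicate block, calls were 4 in *Sln*-rich cells, 167 in the other cardiomyocytes and 11 for the difference. The study names no pairing of replicate numbers, and deviations of equal numbers correlated at -0.0724 across 3273 genes in *Sln*-rich cells and -0.145 across 14807 genes in the other cardiomyocytes, and genes are not independent replicates. A crossed pairing, also chosen after seeing the data, gave 62 calls in the other cardiomyocytes.

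Over the named genes, 327 values under alternatives kept direction and side of the threshold in 179, passed it newly in 102, lost it in 45 and reversed in 1. Depth limits what 95 cells show: 10570 genes with a UMI were too low to test.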

Other observations

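The 49 cells with at least 0.1% *Sln* and a UMI of *Tbx3* came as 8, 13, 21 and 7 cells from the 4 libraries. Pooled, they held *Nr2f1* at 152 CPM, *Cacna2d2* at 590.1 CPM and *Shox2* at 191 CPM. In *Tbx3*-positive cells with little *Sln*, *Nr2f1* was at 23.9 CPM, *Cacna2d2* at 329.5 CPM and *Shox2* at 31.2 CPM.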
